A study of Homo sapiens with 10 samples.

Results

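The collagen genes are the human genes that encode the alpha chains of the collagens, chosen here as every gene entry whose symbol has the form COL, a number, A and a number. The rule found 43 genes in 49 of the 23170 gene entries of each table, and 94 of the 37557 isoform entries. The 6 surplus gene entries were copies of COL11A2 on alternative chromosome 6 haplotypes, and all 6 were listed at 0. The tables came from RNA-seq of 4 lines of PC3, a human prostate cancer cell line. The study asked how the mesenchymal state, and the return from it after OVOL1 or OVOL2 was overexpressed, altered gene expression. PC3-Epi (2 samples) is an epithelial subpopulation of luciferase-carrying PC3 that had been selected as colonies, and PC3-EMT14 (3 samples) is a mesenchymal line isolated after PC3-Epi had been grown with IL4-treated macrophages. Lentiviral transduction of PC3-EMT14 with the transcription factor OVOL1, followed by selection, gave PC3-EMT14-OVOL1 (3 samples). PC3-EMT14-OVOL2 (2 samples) was made by transduction with the related factor OVOL2, from another lentiviral construct that adds a V5 tag. Factor and construct therefore cannot be told apart between the transduced lines. All 4 lines thus carry the luciferase of the parent, each line is a single selected population, and PC3-EMT14 itself was the reference for the transduced lines, with no empty vector named in the labels.

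Collagens are trimers of alpha chains wound into a triple helix, and they build most of the fibrils, networks and filaments of the extracellular matrix. Epithelial cells sit on a basement membrane whose network is made of collagen IV, whereas mesenchymal cells commonly secrete fibrillar collagens and collagen VI into the surrounding stroma. Some collagens stay in the plasma membrane and link the cell to the matrix.

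The values are FPKM, fragments scaled to transcript length and to the upper quartile of the library's gene counts, and each line has 1 pooled value in each table. No spread between samples could be computed, the depth is unknown, and every difference below is therefore a description of pooled values with no test. A gene is called past 2-fold when its ratio of FPKM was at least 2 in either direction and the higher line had at least 1 FPKM. Ratios come from the table of their own comparison, since the tables were normalised separately. Levels of PC3-EMT14 are quoted from the table with PC3-EMT14-OVOL1. The percentages of summed collagen FPKM were taken against these quoted levels for every line, and so across tables. Over the 19 collagen genes at 1 FPKM or more in any line, the estimates of PC3-EMT14 in the other tables were 0.989 to 1.02 times those. In such bulk RNA, fewer cells with a transcript and less transcript per cell cannot be told apart.

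The lines carried the transcripts their labels name. OVOL1 was at 0.0238 FPKM in PC3-EMT14 and 11.3 in PC3-EMT14-OVOL1. OVOL2 was at 0.374 in PC3-EMT14 and 831 in PC3-EMT14-OVOL2, and the transduced factors reached very unlike levels. In PC3-Epi, which was not transduced with either, OVOL1 was at 4.25 FPKM and OVOL2 at 9.91. E-cadherin (CDH1) was at 0.981, 16.2, 39.2 and 50.6 FPKM in the mesenchymal, OVOL1, OVOL2 and epithelial lines, and vimentin (VIM) at 265, 183, 76.9 and 42.5. ZEB1, a repressor of epithelial genes, was at 7.43, 4.25, 1.77 and 0.130. Fibronectin (FN1) was about as high in PC3-Epi as in PC3-EMT14, at 36.0, 18.4, 16.5 and 33.8, and N-cadherin (CDH2) was at 17.6, 13.3, 10.1 and 11.3. With vimentin and ZEB1 these make 4 mesenchymal markers, which summed to 326, 219, 105 and 87.7 FPKM. All 4 lines expressed the keratins of epithelial cells, and the 5 epithelial markers summed to 881, 996, 1511 and 1664 FPKM in that order. KRT19, the highest of the 5 in each line, did not rise steadily, at 656, 608, 862 and 742 FPKM. Of 12 macrophage markers only CD68, a lysosomal protein that other cells also make, reached 1 FPKM. The list summed to 53.6, 52.5, 58.6 and 14.5 FPKM, with CD68 at 53.0, 51.2, 57.8 and 13.2. The other markers, among them PTPRC and CD163, were below 1 FPKM in each line. None of 6 fibroblast markers reached 1 FPKM, and their sum was between 0.222 and 0.617 FPKM. The part of other cells in the collagen values was not tested further.

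Collagen transcripts were most abundant in mesenchymal PC3-EMT14 and least abundant in PC3-Epi. Summed over the 43 genes, the collagens reached 692 FPKM in PC3-EMT14, 503 in PC3-EMT14-OVOL1, 497 in PC3-EMT14-OVOL2 and 217 in PC3-Epi, which is 72.7, 71.9 and 31.3% of PC3-EMT14 for the last 3 lines. The beaded-filament collagen VI made up 67.9% of the sum in PC3-EMT14 and 37.9% in PC3-Epi. Without collagen VI the sums of the OVOL1, OVOL2 and epithelial lines were 92.8, 84.9 and 60.6% of PC3-EMT14. The fibrillar class summed to 20.6, 20.5, 18.6 and 21.8 FPKM in the 4 lines, although its members differed in opposite directions.

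**Figure D1:**
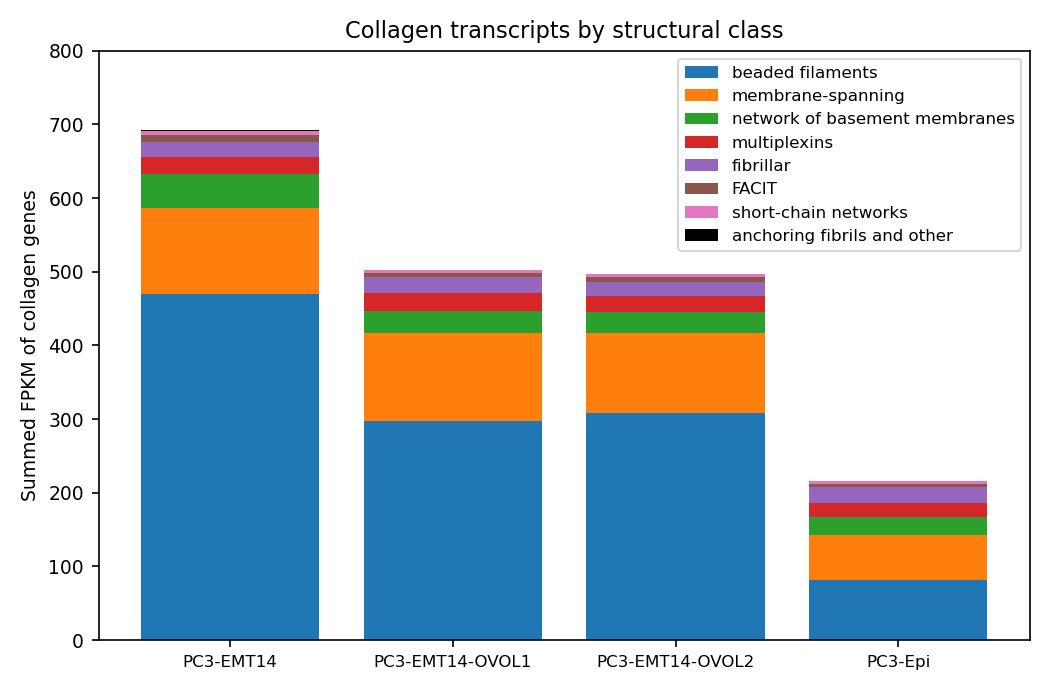
Summed FPKM of the collagen genes by structural class in the 4 lines (stacked bars, vertical axis from 0, 1 pooled value per line, no error bars). The total is 692 FPKM in PC3-EMT14 and 217 in PC3-Epi, and collagen VI (beaded filaments) is the largest class in all 4 lines.

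**Figure D2:**
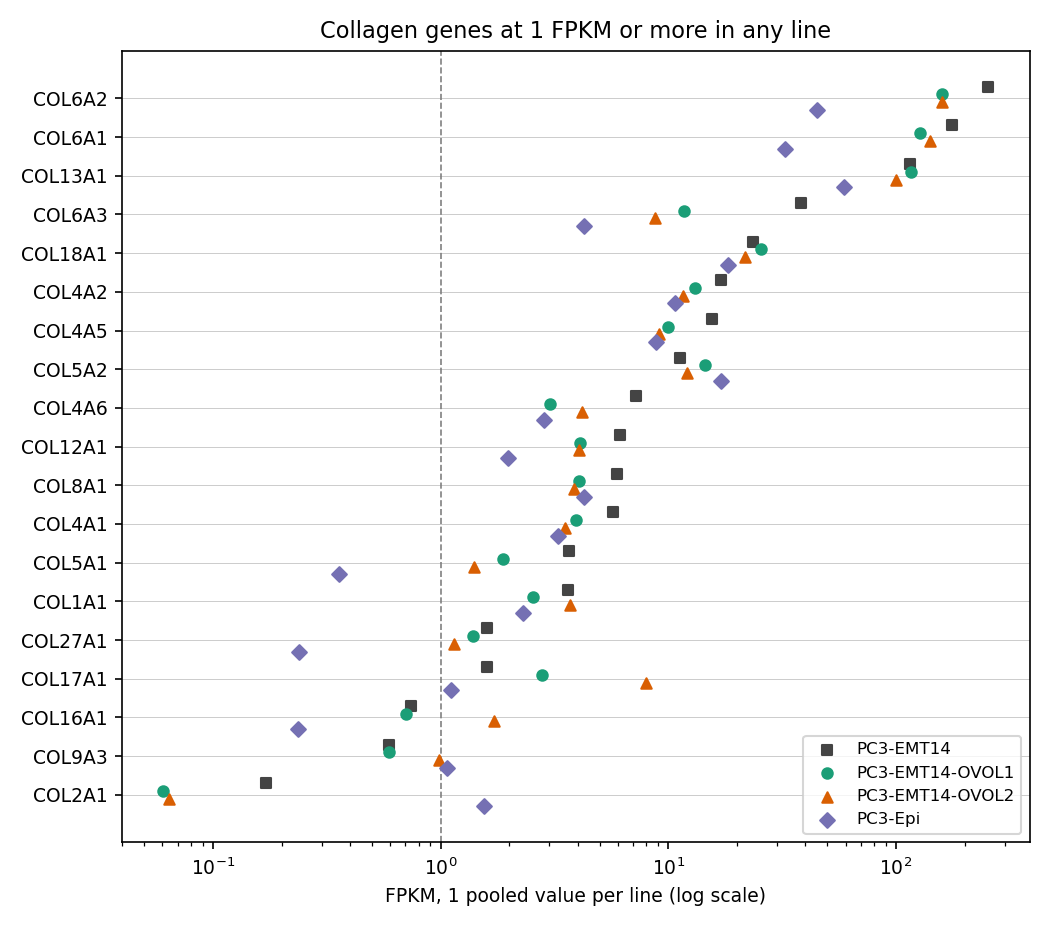
FPKM of the 19 collagen genes at 1 FPKM or more in any line, ordered by their level in PC3-EMT14 (horizontal log axis, 1 pooled value per line and gene, dashed line at 1 FPKM). COL6A3 spans 38.2 FPKM in PC3-EMT14 to 4.27 in PC3-Epi, and COL17A1 is highest in PC3-EMT14-OVOL2 at 7.98.

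In PC3-Epi, 8 of the 18 collagen genes with at least 1 FPKM in either line were past 2-fold lower than in PC3-EMT14, where 8.34% of all 12441 such genes were. The 8 were COL4A6, COL5A1, COL6A1, COL6A2, COL6A3, COL12A1, COL13A1 and COL27A1. In the other direction 1 gene, COL2A1, was past 2-fold higher, against 7.37% of all genes. The median log2 ratio of the 18 was -0.84, with 15 lower and 3 higher, and that of all genes with both values above 0 was -0.01.

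In PC3-EMT14-OVOL1, 2 of 16 collagen genes, COL4A6 and COL6A3, were past 2-fold lower than in PC3-EMT14, beside 1.54% of all 12197 genes. None was past 2-fold higher, beside 2.43% of all genes. In PC3-EMT14-OVOL2, 2 of 17 collagen genes, COL5A1 and COL6A3, were past 2-fold lower (2.93% of all 12307 genes). Another 2, COL16A1 and COL17A1, were past 2-fold higher (4.42% of all genes). Most differences were smaller than 2-fold. The median log2 ratio was -0.52 with OVOL1, where 12 of 16 genes were lower, and -0.55 with OVOL2, where 13 of 17 were lower. Over all genes these medians were -0.00 and -0.04. These comparisons and that with PC3-Epi share the PC3-EMT14 samples, so a departure of those samples would enter each of them. COL6A3 was the collagen past 2-fold lower in each of the 3 comparisons.

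**Figure D3:**
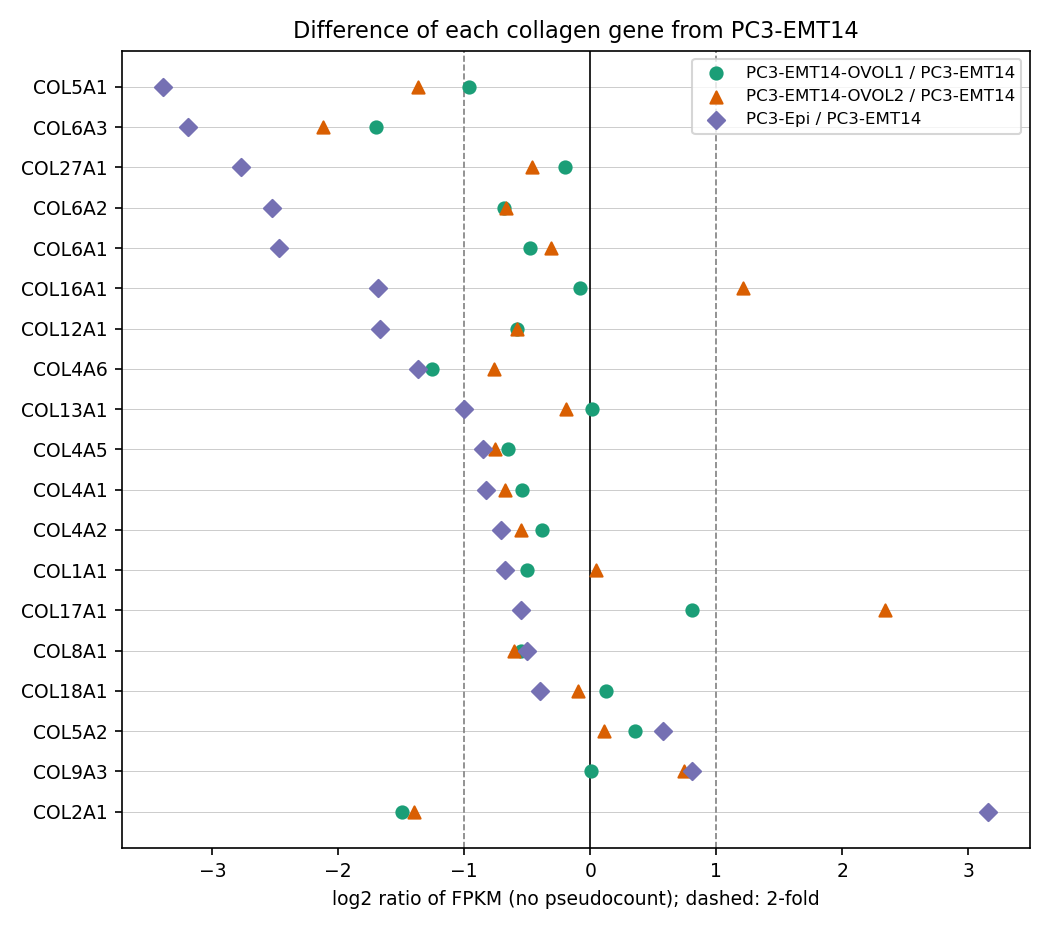
Log2 ratio of FPKM against PC3-EMT14 for the 19 collagen genes (horizontal axis, no pseudocount, dashed lines at 2-fold, 1 point per line, no error bars). COL2A1 and COL9A3 were below 1 FPKM in both lines of the OVOL comparisons. COL16A1 was below 1 FPKM in both lines of the OVOL1 and PC3-Epi comparisons. Its PC3-Epi point left of the 2-fold line is therefore not a call. COL6A3 lies left of the 2-fold line for all 3 lines, and COL17A1 and COL16A1 lie right of it for PC3-EMT14-OVOL2 alone.

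Collagen VI assembles as a trimer of alpha1, alpha2 and alpha3 chains into beaded filaments that link cells to the fibrillar matrix. COL6A2, the alpha2 chain (chr21:47518033-47552763, hg19, plus strand), was the most abundant collagen in PC3-EMT14 at 255 FPKM, with 158 in PC3-EMT14-OVOL1, 159 in PC3-EMT14-OVOL2 and 45.1 in PC3-Epi. Its log2 ratios to PC3-EMT14 were -0.69, -0.67 and -2.53. The neighbouring COL6A1, the alpha1 chain (chr21:47401663-47424963, plus strand), was at 177, 127, 141 and 32.6 FPKM, with log2 ratios of -0.48, -0.31 and -2.47. The pair lies 93069 bases apart, and the ratio of COL6A1 to COL6A2 ranged from 0.694 in PC3-EMT14 to 0.890 in PC3-EMT14-OVOL2. The 14 other genes at 1 FPKM or more within 1 Mb of each had a median log2 ratio of -0.14 in PC3-Epi, and 3 of those were past 2-fold lower.

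COL6A3, the alpha3 chain on another chromosome (chr2:238232655-238322850, minus strand), was at 38.2, 11.8, 8.70 and 4.27 FPKM in the mesenchymal, OVOL1, OVOL2 and epithelial lines. All 3 other lines lay below PC3-EMT14, with log2 ratios of -1.70, -2.12 and -3.19. Among all genes at 1 FPKM or more it ranked 35 from the lowest log2 ratio of 12111 with OVOL1, 49 of 12226 with OVOL2 and 158 of 12344 in PC3-Epi, counting genes with both values above 0. The alpha3 chain was also lower relative to its partner chain in the other lines than in PC3-EMT14. Its ratio to COL6A1 was 0.216 in PC3-EMT14, 0.0927 in PC3-EMT14-OVOL1, 0.0615 in PC3-EMT14-OVOL2 and 0.131 in PC3-Epi. The remaining chains of the class, COL6A5 and COL6A6, stayed below 0.1 FPKM in each line.

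The promoters of COL6A2 and COL6A3 are shown because both genes belong to the same trimer and their levels differed by unlike ratios. Each is the 250 bases before the RefSeq start (RefSeq table of build GRCh38.p14, placed on hg19 by exact match), read 5′ to 3′ on the strand of the gene, at chr21:47517776-47518025 and chr2:238322808-238323057. The last 43 bases of the COL6A3 stretch lie inside the gene entry as the tables place it. Capitals mark the letters GGGCGG (the GC box) and TATAAA, or their reverse complements. The ZEB1 core CAGGTG and CCGTTA, 1 form of the OVO core, were searched too, on both strands, and neither stands in these stretches. The OVOL2 site given in the study also allows other letters before GTTA, and those forms were not searched.
COL6A2: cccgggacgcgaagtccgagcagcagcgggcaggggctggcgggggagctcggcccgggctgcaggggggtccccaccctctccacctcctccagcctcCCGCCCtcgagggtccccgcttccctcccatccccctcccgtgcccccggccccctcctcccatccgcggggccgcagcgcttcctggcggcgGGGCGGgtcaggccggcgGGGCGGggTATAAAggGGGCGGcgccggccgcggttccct
COL6A3: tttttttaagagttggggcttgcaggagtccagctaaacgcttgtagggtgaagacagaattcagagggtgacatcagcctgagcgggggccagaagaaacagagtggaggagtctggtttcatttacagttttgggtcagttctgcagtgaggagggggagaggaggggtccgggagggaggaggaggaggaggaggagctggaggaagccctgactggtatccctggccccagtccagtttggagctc
The COL6A2 stretch holds 4 GC boxes and 1 TATAAA, whereas that of COL6A3 holds none of the 4 motifs.

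Collagen IV forms the sheet of the basement membrane, and its 4 expressed chains were all lower in the other 3 lines than in PC3-EMT14. COL4A2, the alpha2 chain (chr13:110959631-111165373, plus strand), was at 17.0, 13.1, 11.5 and 10.7 FPKM in the mesenchymal, OVOL1, OVOL2 and epithelial lines. COL4A1, the alpha1 chain (chr13:110801310-110959496, minus strand), was at 5.71, 3.92, 3.53 and 3.28 FPKM. Both differed by less than 2-fold, with log2 ratios between -0.38 and -0.70 for COL4A2 and between -0.54 and -0.83 for COL4A1. They are transcribed away from each other, and the ratio of COL4A1 to COL4A2 was between 0.300 and 0.335 in all 4 lines. The 134 bases between the pair (chr13:110959497-110959630, hg19, plus strand) are shown because the tables place a start of either gene at its ends. Capitals mark its 1 GC box.
COL4A1-COL4A2 interval: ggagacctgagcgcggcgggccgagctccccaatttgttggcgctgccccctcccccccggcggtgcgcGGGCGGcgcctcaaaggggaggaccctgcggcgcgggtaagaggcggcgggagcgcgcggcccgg
The ZEB1 core, CCGTTA and TATAAA are not among its letters.

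The head-to-head pair on chromosome X had a wider range of ratios than COL4A1 and COL4A2. COL4A5, the alpha5 chain (chrX:107683154-107940775, plus strand), was at 15.6, 9.92, 9.14 and 8.80 FPKM in the same order of lines. Its log2 ratios were -0.65, -0.75 and -0.85. COL4A6, the alpha6 chain (chrX:107398837-107682704, minus strand, 449 bases from COL4A5), was at 7.18, 3.01, 4.19 and 2.84 FPKM, with log2 ratios of -1.25, -0.76 and -1.37. COL4A6 was thus past 2-fold lower with OVOL1 and in PC3-Epi, and short of it with OVOL2. The ratio of COL4A6 to COL4A5 was 0.461 in PC3-EMT14 and 0.458 with OVOL2, and 0.304 with OVOL1 and 0.322 in PC3-Epi. COL4A3 and COL4A4, chains of the kidney and lung basement membrane that are also head to head, 5 bases apart on chromosome 2, stayed below 0.1 FPKM.

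Among the fibrillar collagens the chains of collagen V, which nucleates and thins collagen I fibrils, went opposite ways. COL5A1, the alpha1 chain (chr9:137533652-137736688, plus strand), was at 3.66, 1.87, 1.40 and 0.357 FPKM. Its log2 ratios to PC3-EMT14 were -0.97, -1.37 and -3.39, the last at rank 141 from the lowest of 12344 genes. Its PC3-Epi value lies below 1 FPKM, and with a pseudocount of 1 FPKM the ratio there was -1.80. COL5A2, the alpha2 chain (chr2:189896641-190044605, minus strand), was at 11.2, 14.4, 12.04 and 17.1 FPKM, with log2 ratios of 0.36, 0.11 and 0.57. Hence COL5A1 stood at 0.325 of COL5A2 in PC3-EMT14 and at 0.0208 in PC3-Epi, with 0.130 and 0.116 in the OVOL1 and OVOL2 lines. Genes within 1 Mb of COL5A1 had a median log2 ratio of 0.41 in PC3-Epi (11 genes), and those around COL5A2 had 0.65 (7 genes).

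Collagen I, the main fibril of bone and skin, was represented by its alpha1 chain only. COL1A1 (chr17:48261457-48279000, minus strand) was at 3.61, 2.55, 3.69 and 2.31 FPKM, with log2 ratios of -0.50, 0.04 and -0.68. Its partner COL1A2 was at most 0.0411 FPKM in any table, and COL3A1, of reticular fibres, at most 0.0592. COL27A1, a fibrillar collagen of cartilage (chr9:116918231-117072975, plus strand), was at 1.59, 1.39, 1.14 and 0.238 FPKM. Its log2 ratio was -2.77 in PC3-Epi and -0.20 and -0.47 in the OVOL lines. The PC3-Epi value lies below 1 FPKM, and with a pseudocount of 1 FPKM the ratio there was -1.09. COL2A1, the collagen of cartilage fibrils (chr12:48366748-48398285, minus strand), was at 0.170, 0.0605, 0.0638 and 1.56 FPKM. It was the fibrillar gene past 2-fold higher in PC3-Epi, with a log2 ratio of 3.16, and 1.56 FPKM is close to the minimum used here.

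The FACIT collagens attach to the surface of fibrils. COL12A1 (chr6:75794042-75915623, minus strand) was at 6.15, 4.11, 4.07 and 1.97 FPKM, with log2 ratios of -0.58, -0.58 and -1.67. COL16A1 (chr1:32117848-32169768, minus strand) was at 0.743, 0.702, 1.71 and 0.237 FPKM. It was past 2-fold higher in PC3-EMT14-OVOL2, with log2 ratios of -0.08, 1.22 and -1.68, and the lower values lie below 1 FPKM. COL9A3, a chain of the collagen of cartilage fibril surfaces (chr20:61448414-61493115, plus strand), was at 0.592, 0.593, 0.983 and 1.06 FPKM, and its entry runs 20604 bases beyond the annotated gene and overlaps TCFL5. Its log2 ratios were 0.00, 0.75 and 0.81, and the part of the overlapping genes was not tested. COL8A1, a short-chain network collagen of vessel walls (chr3:99273153-99897476, plus strand), was at 5.93, 4.05, 3.86 and 4.28 FPKM. Its log2 ratios were -0.55, -0.60 and -0.50, and its entry reaches 379406 bases past the annotated gene and overlaps FILIP1L, and the part of those genes in its value was not tested.

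Membrane-spanning collagens pass through the plasma membrane, and 2 of the 4 reached 1 FPKM. COL13A1, which sits at cell contacts and junctions (chr10:71561644-71718904, plus strand), was at 116, 116, 99.9 and 58.9 FPKM, with log2 ratios of 0.01 and -0.19 in the OVOL lines. It was past 2-fold lower in PC3-Epi by a narrow margin, at a ratio of 0.499, and it fell short of that limit under a different centring of the ratios. COL17A1, a hemidesmosome component that anchors epithelial cells to the basement membrane (chr10:105791046-105845638, minus strand), was at 1.59, 2.79, 7.98 and 1.11 FPKM. It was highest with OVOL2, with log2 ratios of 0.81, 2.34 and -0.55, and ranked 164 from the highest of 12226 genes in that comparison. Against PC3-EMT14-OVOL1 it was 1.53 higher in log2 in PC3-EMT14-OVOL2. COL18A1, a multiplexin of basement membranes whose end is released as endostatin (chr21:46825097-46933634, plus strand), was at 23.5, 25.6, 21.7 and 18.2 FPKM, with log2 ratios of 0.13, -0.10 and -0.40.

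COL16A1 and COL17A1 were the 2 collagen genes past 2-fold higher in PC3-EMT14-OVOL2, both against PC3-EMT14 and against PC3-EMT14-OVOL1 (1.90% of all 12188 genes in the latter), and no collagen was past 2-fold lower there (1.17% of all genes). The median log2 ratio of the 17 collagens between these lines was -0.10, beside -0.04 over all genes, and it was 0.035 with no minimum FPKM. The 250 bases before the RefSeq starts of COL16A1 and COL17A1 (chr1:32169619-32169868 and chr10:105845639-105845888, hg19, both minus strand) are shown because the OVOL2 line is where they stand out. For COL16A1 the RefSeq start differs from that of the tables, and the last 150 of its 250 bases lie inside the gene entry given above. Capitals mark CAGGTG or its complement CACCTG, the GC box and TATAAA.
COL16A1: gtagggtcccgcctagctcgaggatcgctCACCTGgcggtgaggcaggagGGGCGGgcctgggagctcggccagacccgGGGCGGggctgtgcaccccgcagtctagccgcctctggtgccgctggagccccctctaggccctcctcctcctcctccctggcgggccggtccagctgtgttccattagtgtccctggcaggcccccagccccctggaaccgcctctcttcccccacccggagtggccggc
COL17A1: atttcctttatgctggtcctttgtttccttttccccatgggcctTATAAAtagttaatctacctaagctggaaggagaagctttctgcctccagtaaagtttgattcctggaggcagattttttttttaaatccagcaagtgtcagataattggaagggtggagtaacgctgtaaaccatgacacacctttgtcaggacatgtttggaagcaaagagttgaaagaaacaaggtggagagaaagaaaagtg
COL16A1 has 1 CACCTG and 2 GC boxes, and COL17A1 has 1 TATAAA and none of the others. In the whole windows of 250 bases before and 50 after the start, 5 of 31 collagen genes held CAGGTG, as did 20.6% of 35116 RefSeq promoters. Collagens were counted once per gene, by any of its promoters, whereas the background was counted by promoter. CCGTTA stood in 2 of 31, including that of COL4A6, and in 3.07% of all. The GC box stood in 21 of 31 collagen genes and in 45.0% of all promoters, and TATAAA in 7 of 31 and 11.5%. A match is a description of letters and not evidence of binding.

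Of the other 24 collagen genes, 19 stayed below 0.1 FPKM in all lines and tables. These 19 were COL1A2, COL3A1, COL4A3, COL4A4, COL6A5, COL6A6, COL8A2, COL9A1, COL10A1, COL11A1, COL14A1, COL15A1, COL19A1, COL20A1, COL22A1, COL23A1, COL24A1, COL25A1 and COL28A1. Above 0.1 and below 1 FPKM were 5 genes. COL7A1, which forms the anchoring fibrils of epithelial basement membranes, reached at most 0.527 FPKM, COL21A1 0.596, COL9A2 0.675, COL11A2 0.157 and COL5A3 0.102.

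For 8 collagen genes with more than 1 isoform entry, the entries summed to at least 1 FPKM in both lines and could be compared as shares of that sum. In PC3-Epi, 2 of the 8, COL6A3 and COL8A1, had a share that differed by at least 20 percentage points from PC3-EMT14, as did 6.15% of all 4605 such genes. With OVOL1 it was 1 of 8, COL8A1, beside 2.61% of all genes, and with OVOL2 it was 0 of 8, beside 4.63%. For OVOL2 against OVOL1 it was COL8A1 again, 1 of 8, beside 3.04%. So few genes allow no reading of these counts against the shares. COL6A3 differed in PC3-Epi, where 1 entry (TCONS_00020659) held 85.3% against 49.0% in PC3-EMT14, and another (TCONS_00020657) held 3.24% against 29.1%. In PC3-Epi the first was at 3.64 FPKM and the other at 0.138, below the minimum of 1 FPKM used for genes. In the OVOL1 and OVOL2 lines the first entry was at 51.0 and 55.8%. The entries of COL8A1 differed in both directions, with 1 entry (TCONS_00023449) at 55.2% in PC3-EMT14, 30.8% in the OVOL1 line, 59.0% in the OVOL2 line and 84.8% in PC3-Epi. These shares rest on low values, with that entry at 3.28, 1.25, 2.28 and 3.63 FPKM in the same order. The other entry (TCONS_00023450) was at 0.651 FPKM in PC3-Epi. Part of the COL6A3 entries was marked as not tested by the authors' software, and the overlap of the COL8A1 entry with other genes applies here too.

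**Figure D4:**
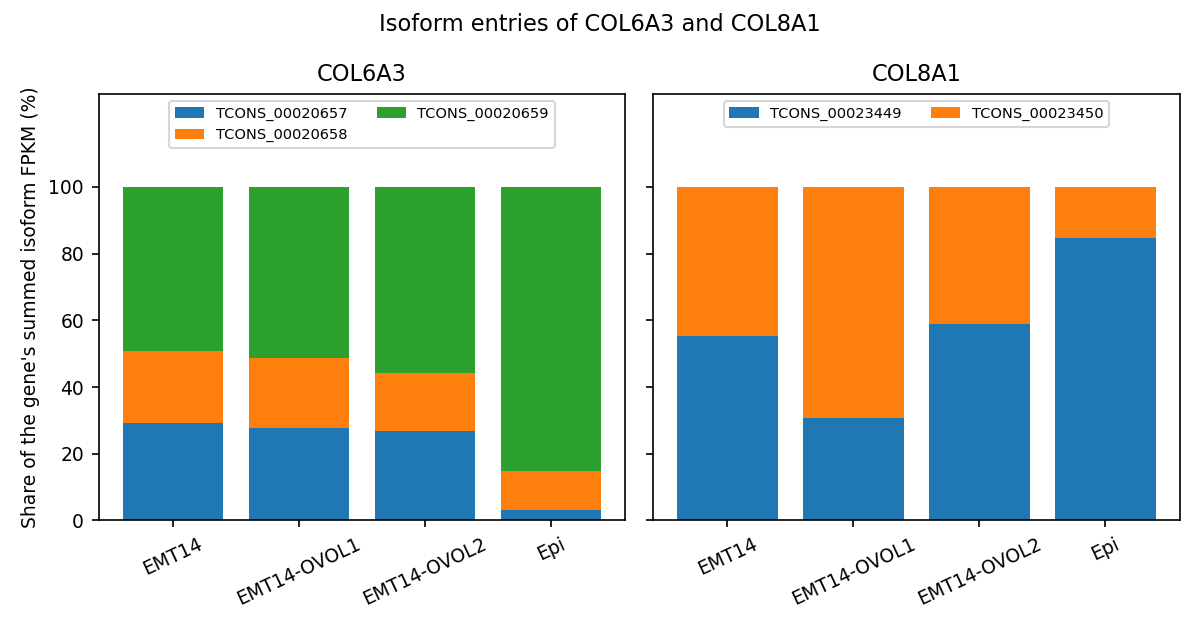
Share of the summed isoform FPKM of COL6A3 (left) and COL8A1 (right) held by each isoform entry with at least 1% in any line (stacked bars, per cent, 1 pooled value per line). TCONS_00020659 of COL6A3 takes 85.3% in PC3-Epi against 49.0% in PC3-EMT14.

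Around the collagens, 57 genes that make, bind or break down collagen were listed, and all 57 were in the tables. With OVOL1, 1 of 38 at 1 FPKM or more was past 2-fold higher and 1 was lower, near the 2.43 and 1.54% of all genes. With OVOL2, 3 of 40 were higher and 5 lower, beside 4.42 and 2.93% of all genes. In PC3-Epi 3 of 39 were higher and 9 lower, beside 7.37 and 8.34%. For OVOL2 against OVOL1, 2 of 38 were higher and 1 lower, beside 1.90 and 1.17%. By list, beside the same 8.34% of all genes, the lower genes in PC3-Epi were 2 of 16 for hydroxylation and folding, 2 of 8 for secretion and propeptide processing, 0 of 4 for cross-linking, 3 of 6 receptors, 2 of 4 for breakdown and 0 of 1 for fibril-binding partners. The 3 higher genes in PC3-Epi were 1 of 8 for secretion and propeptide processing, 1 of 4 for cross-linking and 1 of 6 receptors. Of all genes 7.37% were higher there. LEPRE1, a prolyl 3-hydroxylase, was past 2-fold lower with OVOL2 and in PC3-Epi, at 23.4 against 11.2 FPKM and 24.2 against 7.23. PCOLCE2, which enhances removal of the propeptide, was at 20.3, 12.7, 8.49 and 2.57 FPKM in the 4 lines. LOXL4, a lysyl oxidase-like cross-linking enzyme, was at 1.06, 4.59, 9.97 and 0.716 FPKM, and LOXL3 at 0.209, 0.429, 0.698 and 2.32. Thus LOXL4 was higher only in the OVOL lines and LOXL3 past 2-fold higher in PC3-Epi with at least 1 FPKM.

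The receptors and breakdown genes also included genes higher and lower than in PC3-EMT14. ITGA1, the integrin alpha1 subunit, was at 53.7, 40.8, 33.9 and 12.5 FPKM, and OSCAR was at 2.44, 0.559, 0.669 and 0.180. DDR1, a collagen-activated kinase of epithelial cells, was at 19.0, 20.4, 26.0 and 46.3 FPKM, so it was the receptor past 2-fold higher in PC3-Epi. Among the genes of breakdown, MMP14, a membrane collagenase, was at 115, 58.2, 72.0 and 21.9 FPKM. MRC2, which takes up collagen fragments, was at 13.4, 6.78, 5.00 and 1.95. MMP1, an interstitial collagenase, was at 6.96, 12.2, 14.8 and 7.18 FPKM and past 2-fold higher only with OVOL2. SPARC, a collagen-binding matrix protein, was at 4.23, 4.92, 1.68 and 2.17 FPKM.

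**Figure D5:**
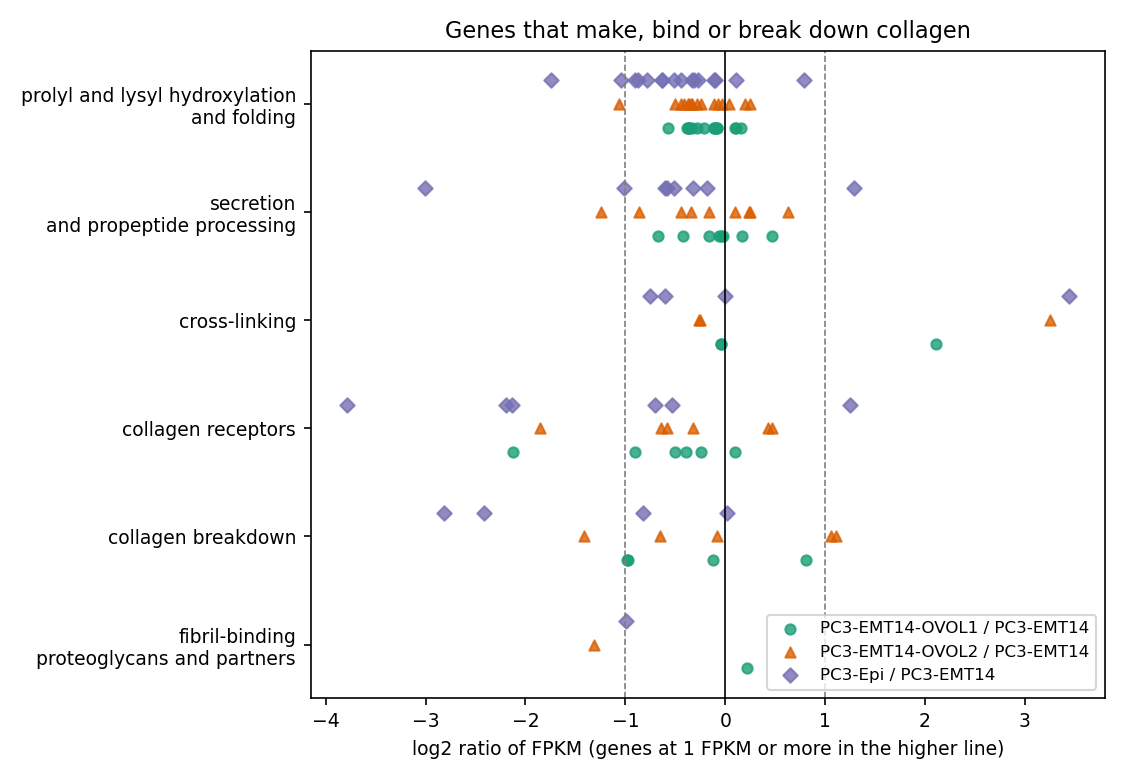
Log2 ratio of FPKM against PC3-EMT14 for genes that make, bind or break down collagen, by list and line (horizontal axis, dashed lines at 2-fold, 1 point per gene at 1 FPKM or more in the higher line, no error bars). Points left of the 2-fold line are most numerous for PC3-Epi, with 9 of 39 genes, and over all genes the share past 2-fold lower was also highest there, at 8.34%.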

How the data were processed

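RNA-seq was done on 4 lines of PC3, with 2 or 3 samples a line. Per the labels and the study's methods, the authors aligned paired-end reads with TopHat to the hg19 genome with UCSC transcripts and estimated expression with Cuffdiff, with fragment bias and multi-read correction, upper-quartile normalisation, and only fragments that fit annotated transcripts counted in the scaling. The deposited values are FPKM, with 1 pooled value per group in each of 8 tables (4 comparisons, for genes and for isoforms), and no value per sample. The tables also hold the authors' own log2 fold changes, test statistics, p-values, q-values and significance calls, none of which was used. Here ratios of FPKM were taken within a table, with no pseudocount, apart from the percentages of summed collagen FPKM. Python 3.11.15 and pandas 2.3.3 were used, after the calculation was tested on simulated data. A call by size needed a ratio of 2 and at least 1 FPKM in the higher group. Depth is unknown, so no interval is given. Alternatives changed the ratio limit, the minimum, the pseudocount, the centring and the table of reference.

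Every collagen gene with at least 1 FPKM in any group is given with its values, and of the 57 pathway genes up to 12 past 2-fold are given. The members, gene lists, the 1 Mb window and the GC box and TATAAA searches were chosen with earlier results of these data known. Coordinates are hg19, 1-based, and strands come from GENCODE lifted to GRCh37. Promoters were from RefSeq, which matched 31 of the 43 genes. Not matched were COL1A1, COL1A2, COL2A1, COL3A1, COL5A2, COL6A1, COL6A5, COL8A1, COL9A3, COL14A1, COL20A1 and COL22A1.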

Additional observations from a re-analysis of the deposited data

How the results depend on the processing

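The median log2 ratio of the collagens for OVOL2 against OVOL1 turned from -0.10 to 0.035 with no minimum FPKM, and the other 3 medians stayed negative under each alternative run. With a ratio limit of 1.5, 1 collagen gene was higher and 5 lower with OVOL1 (4.67 and 4.12% of all genes), 2 were higher and 7 lower with OVOL2 (8.12 and 6.92%), and 2 were higher and 12 lower in PC3-Epi (15.2 and 16.3%). With a limit of 4, 0 collagen genes were lower with OVOL1 (0.533% of all genes), and 1 was higher and 1 lower with OVOL2 (1.89 and 0.837%). In PC3-Epi 5 were lower (3.29%), and 0 were higher for OVOL2 against OVOL1 (0.361%). With no minimum FPKM, the counts are out of up to 43 collagen genes, not the 16 to 18 compared above. Then 11 were lower with OVOL1 (9.92% of all genes), and 5 were higher and 12 lower with OVOL2 (11.9 and 9.02%). In PC3-Epi 7 were then higher and 22 lower (12.4 and 18.3%). For OVOL2 against OVOL1, 5 were higher and 5 lower (11.0 and 5.12%). With a minimum of 5 FPKM, fewer collagen genes were compared than in the main run, and 1 was higher and 1 lower with OVOL2 (3.15 and 2.11% of all genes). At that minimum 0 were higher in PC3-Epi (5.90%) and 1 for OVOL2 against OVOL1 (1.31%). With a pseudocount of 1 FPKM, the counts were 1 higher and 1 lower with OVOL2 and 1 higher for OVOL2 against OVOL1. COL5A1 and COL16A1 were then no longer past 2-fold with OVOL2, nor was COL16A1 against OVOL1. The shares of all genes were not computed with that pseudocount. COL13A1 in PC3-Epi was no longer past 2-fold with that pseudocount, with centring on the median of all genes, or with PC3-EMT14 taken from another table. These counts have no test. Leaving out a sample in turn could not be run, because the tables hold pooled values. No paired analysis was possible because the columns carry no replicate numbers and the result comes from no test.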
